A study of Mus musculus with 6 samples.

Results

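The transcripts of Ncoa4, of its processed pseudogene Gm6768 and of 5 genes whose products act with NCOA4 on ferritin were followed in J774 mouse macrophages. The genes were chosen by name as Ncoa4, Gm6768, Herc2, Tax1bp1, Rb1cc1, Fth1 and Ftl1, and each symbol matched 1 Ensembl gene in the GENCODE M21 annotation of GRCm38. These are 7 of the 55487 genes in the series. J774 is a cultured mouse macrophage line. Control siRNA or NCOA4 siRNA was delivered into the cells with liposomes. There were 3 biological replicates of each, 6 libraries in all, profiled by stranded paired-end poly(A) RNA-seq. A small interfering RNA lowers a transcript without deleting its gene, so these cells are a partial knockdown. The time from transfection to RNA isolation is not given for these libraries in the sources used here, and neither is the NCOA4 siRNA sequence in the files used. The comparison asks what lowering Ncoa4 does to the transcripts of the machinery in which it works.

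NCOA4 is the cargo receptor of ferritinophagy, the selective autophagy of ferritin. It binds ferritin through the H subunit, and ferritin is then carried to the lysosome, where it is degraded and its iron is set free. When iron is plentiful, the ubiquitin ligase HERC2 binds NCOA4 and marks it for degradation, so that less ferritin is taken down. TAX1BP1 is an autophagy receptor that takes part in the delivery of NCOA4 and ferritin, and FIP200, the product of Rb1cc1, is a scaffold of the kinase complex that starts an autophagosome. The ferritin shell is built of H subunits (Fth1), which oxidize iron, and L subunits (Ftl1), which favour its storage. Ferritin synthesis is controlled mostly at translation, through an iron responsive element in the 5′ untranslated region to which iron regulatory proteins bind. Macrophages depend on this store because they take up the iron of old red blood cells.

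Rebuilt reads on genes per library numbered from 15502109 to 18282067 in the controls and from 16063264 to 17855985 after NCOA4 siRNA. All 8 macrophage markers examined were present at a mean of at least 0.5 TPM (transcript abundance scaled for gene length and library size), and their summed level was 8539 to 8713 TPM in the controls and 8812 to 8913 TPM after NCOA4 siRNA. No T cell, B cell, fibroblast, epithelial or erythroid marker reached 0.5 TPM, the highest sum of any of these lists in a library was 0.340 TPM, and all 4 erythroid markers were listed at 0. Control siRNA replicate 1 stood apart from the other controls. Its median absolute log2 difference over genes was 0.15 from control siRNA replicate 2 and 0.14 from replicate 3, against 0.11 between those and 0.08 to 0.09 within the NCOA4 siRNA libraries. From the NCOA4 siRNA libraries it was 0.18 to 0.19 for control siRNA replicate 1 and 0.13 to 0.14 for replicates 2 and 3. Replicates 2 and 3 thus lay about as far from control siRNA replicate 1 as from the NCOA4 siRNA libraries. In bulk RNA, fewer cells of a type and less RNA per cell cannot be told apart.

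Gm6768 is a processed pseudogene, a copy of the spliced coding sequence of Ncoa4 on another chromosome. Ncoa4 (ENSMUSG00000056234) lies at chr14:32159865-32179855 on the plus strand and is protein coding. Gm6768 (ENSMUSG00000021908) lies at chr12:119260978-119262855, also on the plus strand, as a single exon of 1878 bases. Read in GENCODE M21 transcripts, its sequence differed from the Ncoa4 coding sequence and stop codon at 2 positions, an identity of 99.9%, and its reading frame ran through the same 625 codons to the stop. Positions are counted from the A of the start codon and the Ncoa4 base is given first. The substitutions are A1312G, in codon 438, and G1533A, in codon 511, and both change the amino acid. The 30 bases around each are shown, with the differing base in capitals. Within the shared sequence, reads of the spliced transcript that miss both positions are the same for the gene and the pseudogene.
Ncoa4 at A1312G: gtgagaaggaagccAtgtataaatggcttc
Gm6768 at A1312G: gtgagaaggaagccGtgtataaatggcttc
Ncoa4 at G1533A: tcagagtggcttatGgggcctacgtgcaaa
Gm6768 at G1533A: tcagagtggcttatAgggcctacgtgcaaa
Of the 1729 windows of 150 bases (the read length) in the shared sequence, 300 (17.4%) held a differing base. Only these windows differ in sequence between the 2 genes. The windows stand for single reads, whereas the libraries were sequenced in read pairs. A pair can also be told apart through its other read, and the share of such pairs was not measured. Of the same windows, 861 (49.8%) crossed 1 or more of the 8 exon junctions of Ncoa4. The pseudogene has no junctions, but apart from the 2 positions its bases are the same across them. A window that crosses a junction therefore differs only where it also holds a differing base. A further 2187 bases of the main Ncoa4 transcript lie outside the shared sequence. Whether the genome beside the annotated Gm6768 exon also matches them was not examined. How reads that match both genes were counted is not given in the sources used here, so the separate values of Ncoa4 and Gm6768 are uncertain.

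Ncoa4 transcript abundance fell with NCOA4 siRNA to 41.9% of the control level, and Gm6768 fell to 39.95%. Ncoa4, the targeted gene, was at 19.7, 22.5 and 22.4 TPM in control siRNA replicates 1 to 3 and at 9.63, 8.60 and 8.88 TPM in NCOA4 siRNA replicates 1 to 3. All 3 NCOA4 siRNA values were below the lowest control value, so the targeted gene bears out the labels of all 6 libraries. The means were 21.6 ± 1.57 TPM and 9.04 ± 0.533 TPM (SD, n = 3 each). The log2 fold change was −1.21 (SE 0.08, 95% interval −1.39 to −1.03, limma adjusted p = 0.00127). The fold changes are on the scale of log2(TPM + 0.5), and a gene was called where its adjusted p was under 0.05 and its fold change above 1.5.

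Gm6768 was at 29.5, 28.6 and 27.6 TPM with control siRNA and at 13.1, 9.48 and 11.6 TPM with NCOA4 siRNA. The groups did not overlap, and the spread was wider with NCOA4 siRNA. The means were 28.6 ± 0.958 TPM and 11.4 ± 1.83 TPM (SD, n = 3 each), with a log2 fold change of −1.30 (SE 0.11, 95% interval −1.56 to −1.03, limma adjusted p = 0.00256). The intervals of the gene and its pseudogene overlapped over most of their length.

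The sum of the reads on both genes does not depend on how they were split, provided that each shared read was counted once. If shared reads were left out or counted for both genes, the sum depends on that rule too. The rule is not given in the sources used here. It was 1380, 1603 and 1365 reads in the control libraries, and 667, 536 and 634 in those of NCOA4 siRNA. Scaled to the reads on genes of each library (RPM), the sum was 85.7 ± 3.83 RPM with control siRNA and 35.8 ± 2.56 RPM with NCOA4 siRNA (SD, n = 3 each), which is 41.8% of the control level (two-sided exact permutation p = 0.1, the smallest that 3 against 3 libraries allow). Gm6768 held a similar part of these reads in every library. Its share was 23.0% (95% Wilson interval 20.9 to 25.3), 20.3% (18.4 to 22.4) and 19.8% (17.8 to 22.0) in the control libraries. It was 21.4% (18.5 to 24.7), 18.1% (15.1 to 21.6) and 20.8% (17.8 to 24.2) with NCOA4 siRNA. The intervals cover counting error only. The groups overlapped, and the difference of −0.93 percentage points was within the spread between replicates (exact permutation p = 0.6).

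**Figure D1:**
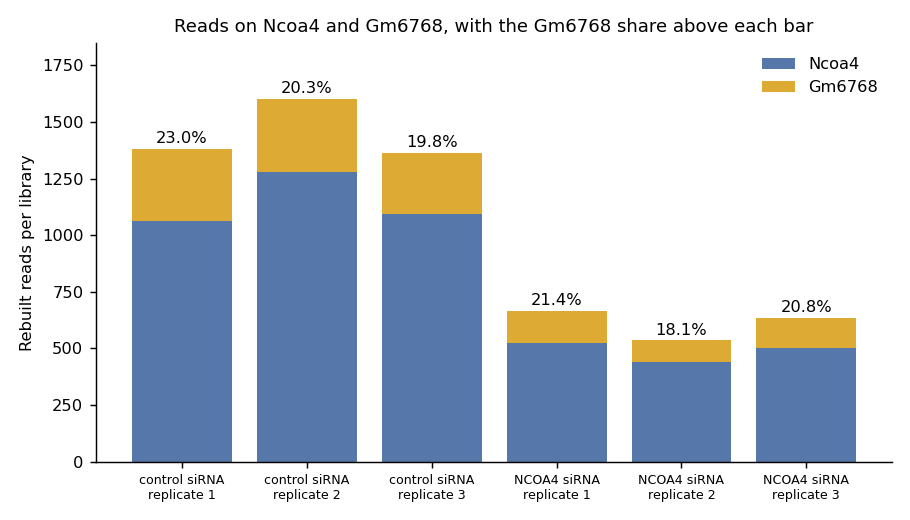
Rebuilt reads per library (vertical axis) on Ncoa4 (blue) and Gm6768 (yellow) in the 3 control siRNA and 3 NCOA4 siRNA libraries, with the Gm6768 share of the sum above each bar. The sums lie between 1365 and 1603 in the controls and between 536 and 667 after NCOA4 siRNA, while the share stays between 18.1% and 23.0%.

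Of the 7 genes, 3 passed an adjusted p of 0.05 (Ncoa4, Gm6768 and Fth1), all of them lower with NCOA4 siRNA, and 2 of these (Ncoa4 and Gm6768) were called. Over all 13829 genes tested, 5.42% passed in either direction, 2.31% passed as lower, and 1.18% were called. In 4 of the 7 genes (these 3 and Herc2) the groups did not overlap, as was so for 28.4% of all genes tested. The median log2 fold change over all genes tested was 0.03. Since the siRNA was aimed at Ncoa4, its own fall is a check of the knockdown, and Gm6768 cannot be separated from it.

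**Figure D2:**
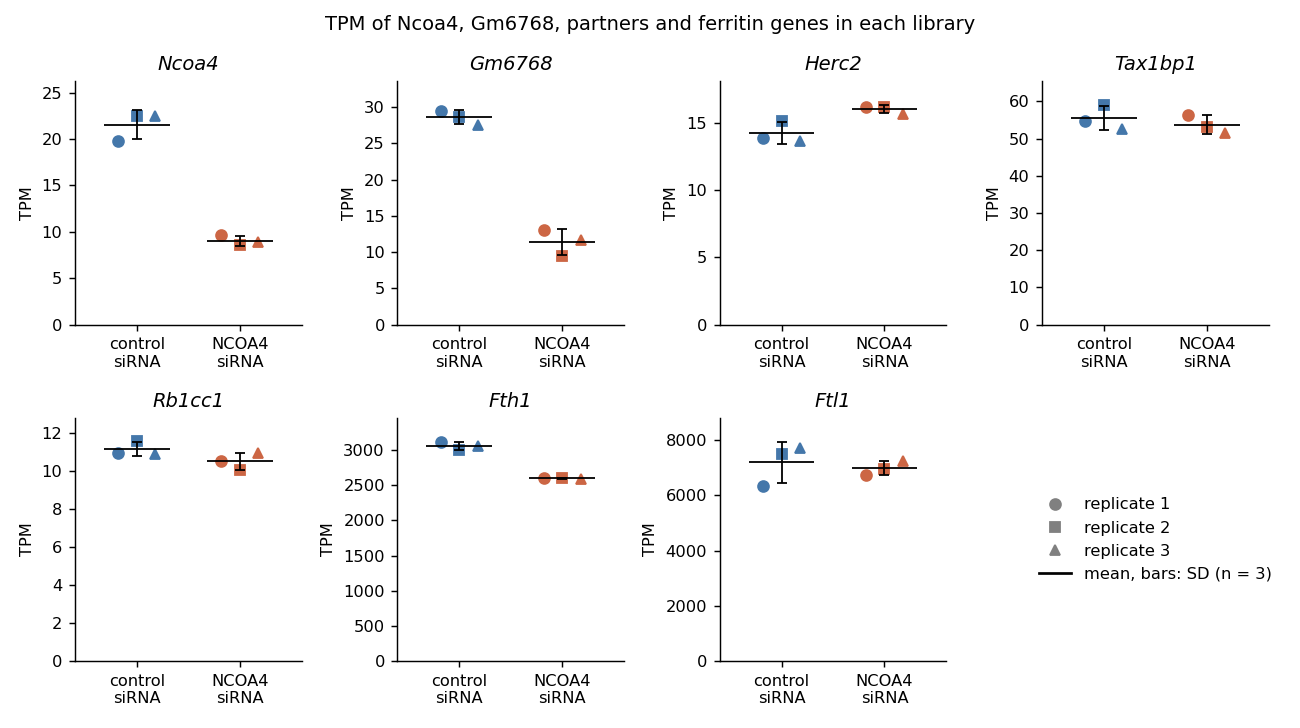
TPM (vertical axes, each starting at 0) of the 7 genes in each library, with control siRNA in blue and NCOA4 siRNA in orange. Symbols mark the replicate, lines the mean and bars the SD (n = 3). The groups are apart for Ncoa4, Gm6768, Herc2 and Fth1 and overlap for Tax1bp1, Rb1cc1 and Ftl1.

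Fth1, which encodes the ferritin H subunit that NCOA4 binds, was slightly lower with NCOA4 siRNA. It lies at chr19:9980598-9985098 on the plus strand (ENSMUSG00000024661). Its level was 3112.5, 2999 and 3046 TPM in the controls and 2604, 2594 and 2591.5 TPM after NCOA4 siRNA. The NCOA4 siRNA libraries lay close together and below all 3 controls. The means were 3053 ± 56.9 TPM and 2597 ± 6.77 TPM (SD, n = 3 each), so that 85.1% of the control level remained. The log2 fold change was −0.23 (SE 0.04, 95% interval −0.33 to −0.14, limma adjusted p = 0.0257), below the fold change needed for a call. Between 49026 and 63061 reads stood behind each value. The direction was the same under all 15 alternatives of processing, but the adjusted p lay above 0.05 in 8 of them, up to 0.181 when genes of low TPM were kept. Among these 8 are the fits without control siRNA replicate 2 (0.0583) or 3 (0.0635) and without NCOA4 siRNA replicate 1 (0.14), 2 (0.15) or 3 (0.132).

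Ftl1, which encodes the ferritin L subunit and lies at chr7:45457944-45459884 on the minus strand (ENSMUSG00000050708), did not pass the test. It was at 6346, 7493 and 7708 TPM with control siRNA and at 6718, 6958 and 7223 TPM with NCOA4 siRNA. The groups overlapped only through control siRNA replicate 1, the library that stood apart, which had the lowest value of all 6. The means were 7182 ± 732 TPM and 6966 ± 253 TPM (SD, n = 3 each), with a log2 fold change of −0.04 (95% interval −0.24 to 0.16, limma adjusted p = 0.83). Without control siRNA replicate 1 the log2 fold change was −0.13 (SE 0.04, adjusted p = 0.129). The sign turned with quantile normalization (0.03) and without control siRNA replicate 3 (0.01), so no direction is given for Ftl1.

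The ratio of Fth1 to Ftl1 TPM needs no scaling between libraries. It was 0.490, 0.400 and 0.395 with control siRNA and 0.388, 0.373 and 0.359 with NCOA4 siRNA. The groups did not overlap, but control siRNA replicates 2 and 3 lay close to NCOA4 siRNA replicate 1. The means were 0.429 ± 0.0536 and 0.373 ± 0.0144 (SD, n = 3 each). The mean log2 ratio differed by −0.19 (exact permutation p = 0.1, the smallest possible), and by −0.09 without control siRNA replicate 1. Together the ferritin transcripts made up between 0.932% and 1.075% of all TPM in a library.

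**Figure D3:**
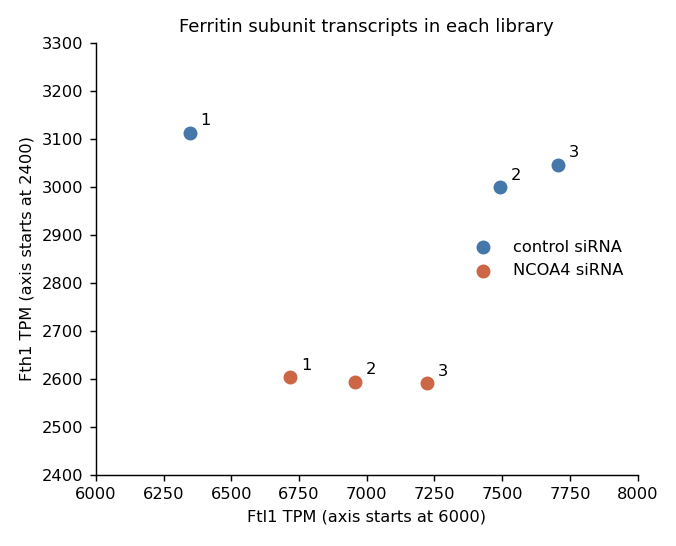
Fth1 TPM (vertical axis) against Ftl1 TPM (horizontal axis), neither axis starting at 0, in each library, with the replicate number beside each point. The 3 NCOA4 siRNA libraries (orange) lie between 2591.5 and 2604 TPM of Fth1, below the controls (blue), and within the range of the controls for Ftl1, where control siRNA replicate 1 is the lowest point.

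Both ferritin transcripts carry the iron responsive element. The 30 bases around its loop in the main transcripts are shown, from GENCODE M21, with the 6 loop letters in capitals, because this is the site through which ferritin synthesis answers to iron. They are bases 86 to 115 of the Fth1 transcript and bases 77 to 106 of the Ftl1 transcript, counted from the transcript start, in the 5′ untranslated region of each.
Fth1: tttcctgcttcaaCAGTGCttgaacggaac
Ftl1: tgtcttgcttcaaCAGTGTttgaacggaac
Of the 30 bases, 27 were the same in both. The letters CAGTG alone are common, and the first 109 bases of the 5′ untranslated region, read on the transcript strand, held them in 1866 of 13410 genes (13.9%). With these letters kept and at most 3 mismatches in the rest, the 30 bases were found only in Fth1, Ftl1 and Ftl1-ps1 among all GENCODE M21 transcripts. The sequence is a description, and no translation was measured in these data.

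Few reads were counted on copies of the ferritin genes. For Ftl1, 8 copies elsewhere were found by symbol or by at least 300 aligned bases of 90% identity or more. Together they held 940 reads over the 6 libraries, 0.289% of the reads on Ftl1. How reads that match both Ftl1 and a copy were counted is not given in the sources used here. The level of Ftl1, and its ratio to Fth1, may therefore depend on that rule. Ftl1-ps1, whose transcript matches Ftl1 over 910 bases at 99.6%, was at 18.6 ± 4.56 TPM in the controls and at 18.1 ± 1.08 TPM after NCOA4 siRNA (SD, n = 3 each, limma adjusted p = 0.966). Gm15590 was at 5.85 and 6.48 TPM and Gm7541 at 1.30 and 1.31 TPM (means with control and NCOA4 siRNA). Of the 8 copies, 5 had enough TPM to be tested, and none of these passed. Of the genes that overlap Ftl1, Gm10252 on the opposite strand held 2 reads and Gm22133 on the same strand was at 0. Neither is among the 8. For Fth1, 12 genes were found, 9 of the Fthl17 family at 0 in every library, and the other 3 held 14 reads in all. These were Fth-ps2, Gm6977 and Fth-ps3, at means of 0.501, 0.223 and 0.0893 TPM over the 6 libraries. The pseudogene of Ncoa4 was different in this respect, with reads that came to 26.3% of those on Ncoa4.

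Herc2, the ligase that targets NCOA4, was slightly higher with NCOA4 siRNA but did not pass the test. It lies at chr7:56050196-56231800 on the plus strand (ENSMUSG00000030451). Its level was 13.9, 15.1 and 13.6 TPM in the controls and 16.2, 16.2 and 15.6 TPM after NCOA4 siRNA. The groups did not overlap. The means were 14.2 ± 0.807 TPM and 16.0 ± 0.310 TPM (SD, n = 3 each), with a log2 fold change of 0.17 (SE 0.06, 95% interval 0.02 to 0.31, limma adjusted p = 0.182). With limma-voom on the rebuilt reads the same comparison gave 0.18 with an adjusted p of 0.0449. No copy of Herc2 was found, and Gm19187, which overlaps it on the opposite strand, was at 0.

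Tax1bp1, the autophagy receptor, lies at chr6:52713729-52766780 on the plus strand (ENSMUSG00000004535). It was at 54.8, 59.1 and 52.6 TPM with control siRNA and at 56.5, 53.2 and 51.5 TPM with NCOA4 siRNA. The groups overlapped. The means were 55.5 ± 3.30 TPM and 53.7 ± 2.53 TPM (SD, n = 3 each). The log2 fold change was −0.05 (limma adjusted p = 0.696), and its 95% interval, −0.19 to 0.09, leaves room for a change of this size in either direction but not for a fold change of 1.5. No copy was found, and the overlapping genes Gm43967 and Gm43966 were at 0.

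Rb1cc1, which encodes FIP200, lies at chr1:6206197-6276648 on the plus strand (ENSMUSG00000025907). It was at 10.9, 11.6 and 10.9 TPM with control siRNA and at 10.5, 10.1 and 10.9 TPM with NCOA4 siRNA. NCOA4 siRNA replicate 3 lay within the control range and the other 2 below it. The means were 11.1 ± 0.363 TPM and 10.5 ± 0.443 TPM (SD, n = 3 each), with a log2 fold change of −0.08 (95% interval −0.23 to 0.07, limma adjusted p = 0.523). Its copy Gm13961 held 34 reads, 0.622% of those on Rb1cc1. The antisense gene 4732440D04Rik overlaps Rb1cc1, was at 1.54 to 2.19 TPM and held 315 reads. The libraries are stranded, but the strand setting used in counting is not given in the sources used here.

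The order of the levels depended on the gene length used. Per the union of annotated exons, as in the deposited TPM, the control means ran Ftl1, Fth1, Tax1bp1, Gm6768, Ncoa4, Herc2 and Rb1cc1, and no neighbours in this order overlapped in their 3 control libraries. With NCOA4 siRNA, Herc2 stood above Gm6768, and Ncoa4 was the lowest of the 7. Gm6768 (11.4 TPM) overlapped in its libraries with both Rb1cc1 (10.5 TPM) and Ncoa4 (9.04 TPM), and Herc2 (16.0 TPM) lay above all 3. The union counts every annotated exon of a gene. It was 9365 bases for Ncoa4 against 4065 in its main transcript and 3469 bases for Fth1 against 929. The main transcripts were picked from the annotation, and which transcripts these cells use was not measured. Gm6768 has a single length, 1878 bases. For the level per main transcript, a scale chosen after seeing the data, the deposited TPM was multiplied by the union length over the main transcript length. These values were not rescaled to the same sum in every library, so they are compared only with each other. On this scale Ncoa4 was at 49.7 ± 3.61 TPM and Gm6768 at 28.6 ± 0.958 TPM in controls, the reverse of the deposited order. Fth1 was then at 11399 ± 212 TPM and Ftl1 at 9942 ± 1014 TPM in controls, also reversed. With NCOA4 siRNA, Fth1 (9696 ± 25.3 TPM) and Ftl1 (9643 ± 350 TPM) did not differ beyond their spread on that scale, and nor did Ncoa4 (20.8 ± 1.23 TPM) and Rb1cc1 (20.3 ± 0.855 TPM). The percent of the control level that remained does not depend on this choice.

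**Figure D4:**
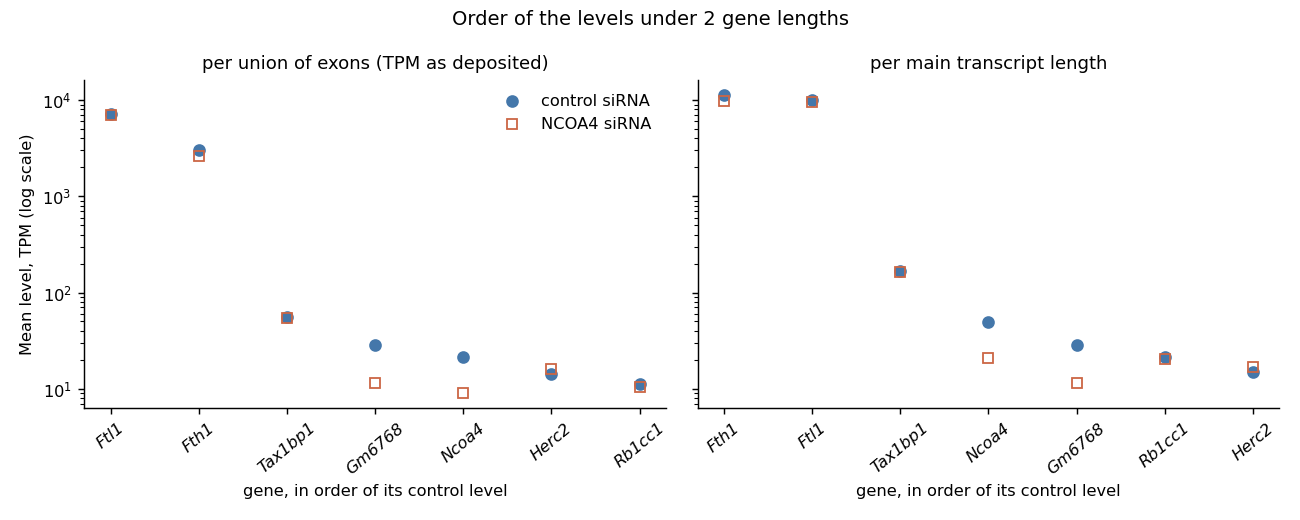
Mean level in TPM (vertical axis, log scale) of the 7 genes with control siRNA (filled circles) and NCOA4 siRNA (open squares, n = 3 each), per union of exons on the left and per main transcript length on the right, ordered by the control level. The right panel shows the deposited TPM times the length ratio, not rescaled to a common sum. Ftl1 and Fth1 exchange places between the panels, as do Gm6768 and Ncoa4, and the levels span from 9.04 to 7182 TPM on the left.

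The other genes of the pathway were described by 8 lists. Of their 49 genes, all 49 were tested, 1 rose, 1 fell and none was called, beside 5.42% of all genes tested that passed in either direction and 1.18% that were called. The share that passed was close to that over all genes. In 12 of the 49 the groups did not overlap, against 28.4% of all genes tested. Their median log2 fold change was 0.04, beside 0.03 over all genes tested. The lowest was −0.54 and the highest 0.38.

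The gene that fell was Mapk6, which encodes the atypical MAP kinase ERK3, a binding partner of HERC2. It was at 84.5, 85.6 and 82.6 TPM with control siRNA and at 56.0, 60.9 and 57.0 TPM with NCOA4 siRNA. The groups were far apart (84.2 ± 1.49 and 58.0 ± 2.59 TPM, SD, n = 3 each), with a log2 fold change of −0.54 (SE 0.05, limma adjusted p = 0.00234). The other 3 genes of that list did not pass. The gene that rose was Slc11a1, which encodes NRAMP1, the divalent metal transporter of the macrophage phagosome. Its level was 163.5, 141.2 and 152.2 TPM in the controls and 194.1, 197.0 and 201.0 TPM after NCOA4 siRNA. Every NCOA4 siRNA library was above every control (152 ± 11.2 and 197 ± 3.46 TPM, SD, n = 3 each), with a log2 fold change of 0.38 (SE 0.06, limma adjusted p = 0.0175). The other 3 genes of the lysosomal iron release list did not pass.

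In the other 6 lists no gene passed, and the gene with the smallest adjusted p of each is given. In the ULK complex (4 genes), to which FIP200 belongs, it was the kinase gene Ulk2, with a log2 fold change of 0.27 (limma adjusted p = 0.121). Among 5 other cargo receptors it was Sqstm1, which encodes p62, at −0.06 (0.382). Among 12 genes of the ATG8 proteins and their conjugation it was Map1lc3b, which encodes LC3B, at 0.17 (0.0917). Among 9 genes of ATG9, the lipid kinase and membrane supply it was the lipid transfer protein gene Atg2a, at 0.17 (0.0804). In ferritin loading and translation control (5 genes) it was Pcbp2, which encodes an iron chaperone, at −0.12 (0.186). Among 6 other NCOA genes, which share a name with NCOA4 through nuclear receptor coactivation, it was Ncoa1, at 0.23 (0.124).

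**Figure D5:**
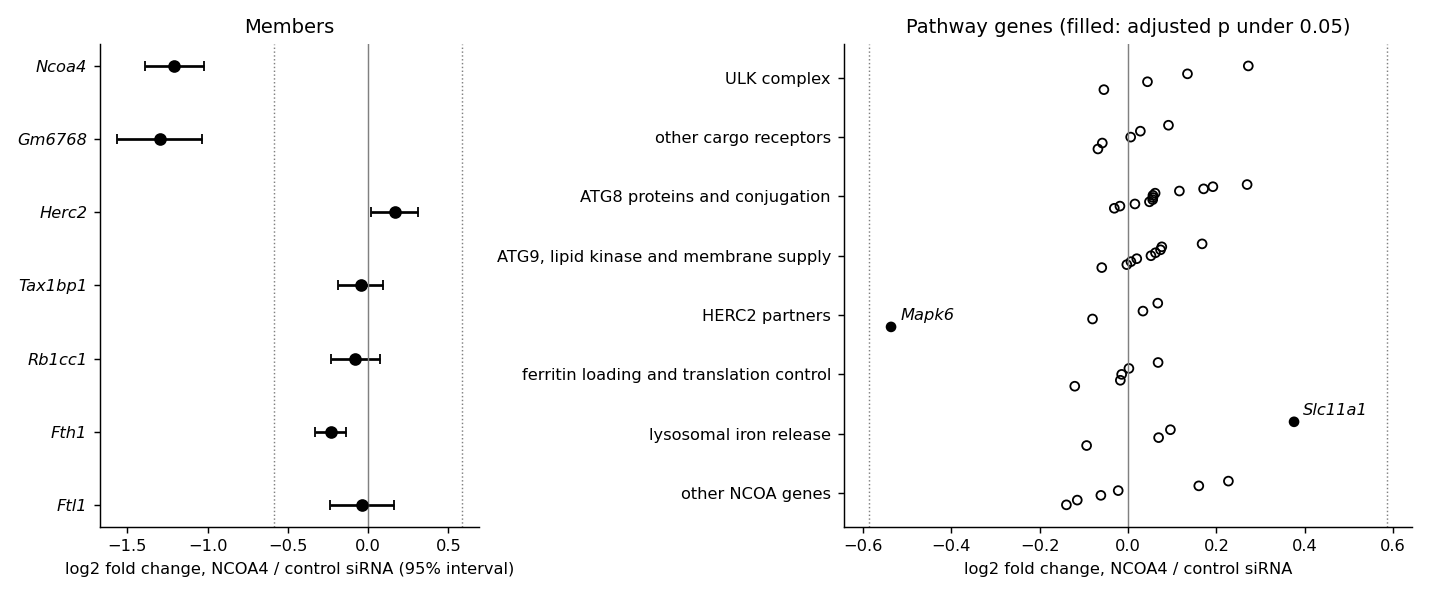
Log2 fold change of NCOA4 siRNA over control siRNA (horizontal axes), with dotted lines at a fold change of 1.5. The left panel gives the 7 genes with 95% intervals, of which only Ncoa4 and Gm6768 lie wholly beyond the dotted line, and the right panel gives the 49 pathway genes by list, where Mapk6 (−0.54) and Slc11a1 (0.38) are filled because their adjusted p is under 0.05.

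The genes whose pattern over the 6 libraries was most like that of Ncoa4 were Commd10, Rgs1, Arhgef7, Adam8 and Cars. The measure was Pearson's r on log2(TPM + 0.5) among 10038 genes with a mean of at least 5 TPM, the members and their copies left out. It was 0.9988 for Commd10, which encodes a COMM domain protein, and 0.9971 for Rgs1, a regulator of G protein signalling. It was 0.9968 for Arhgef7, 0.9961 for Adam8, a membrane metalloprotease, and 0.9959 for Cars, a cysteinyl-tRNA synthetase. All 5 were lower with NCOA4 siRNA. Commd10 was at 18.4, 19.2 and 18.9 TPM with control siRNA and at 12.6, 11.8 and 12.0 TPM with NCOA4 siRNA, a pattern that like Ncoa4 has a step between the groups. Over the same 6 libraries r with Ncoa4 was 0.9822 for Gm6768, 0.9726 for Fth1, 0.7177 for Rb1cc1, 0.3977 for Tax1bp1, 0.2813 for Ftl1 and −0.8381 for Herc2. The 6 points share the difference between the groups, so these values describe that step rather than variation within a group.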

How the data were processed

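The authors deposited TPM per gene for each library, that is, reads per gene divided by gene length and scaled to the same sum in every library, with no scaling between libraries. The submitters' processing notes name Trimmomatic 0.33, FastQC, HISAT2 2.1.0, featureCounts, edgeR and the build mm10. The annotation, the strand setting and the treatment of reads with several matches are not given in the sources used here. The authors tested counts with edgeR. Because TPM is not a count, limma (version 3.58.1, R 4.3.3) with a trend was used on log2(TPM + 0.5) over the 13829 genes with a mean of at least 0.5 TPM, with Benjamini-Hochberg adjustment over all of them. Single values were compared with two-sided exact permutation tests over 20 arrangements.

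Whole reads were rebuilt from TPM and the GENCODE M21 union of exons, and came out whole within 0.01 in all 6 libraries for 20759 of 21096 genes above 0 (98.4%), which hold 99.1% of TPM. For a 2-kb gene, 1 read equals 0.0825 to 0.0959 TPM depending on the library. The rebuilt reads gave depths, shares with 95% Wilson intervals and a limma-voom alternative. Copies were searched with blastn 2.17.0 and other steps used Python 3.11.15 with scipy 1.17.1. The test was tested on simulated data.

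The members and lists were chosen with earlier results of these data known. Named are the members, the 3 copies of highest mean TPM of each, overlapping genes, the called pathway genes or else the gene of smallest adjusted p of each list, and the 5 genes most like Ncoa4. Both pathway genes that passed an adjusted p of 0.05 are the smallest of their lists. The alternatives tried were no filter, pseudocounts of 0.1 and 1, a mean of at least 5 TPM, median centring, quantile normalization, no trend, limma-voom, a replicate block, each library left out in turn and, for the ratio of the ferritin genes, copies added to their parents. The level per main transcript was added after seeing the data. Groups came from the sample labels. Biological replicates are labelled as such, but nothing says how the cultures were separated. The p-values therefore set each difference against the spread between these libraries, which may not be that between independent cultures.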

Additional observations from a re-analysis of the deposited data

How the results depend on the processing

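Ncoa4 (log2 fold change −1.27 to −1.17) and Gm6768 (−1.40 to −1.18) kept their direction and stayed past the threshold in all 15 alternatives, and Tax1bp1, Rb1cc1 and Ftl1 stayed short of it in all 15. Fth1 kept its direction but no longer passed with no filter on low TPM (−0.23, adjusted p = 0.181), without a trend (−0.23, 0.0547) and with the replicate block (−0.23, 0.118). With each library left out it ranged from −0.25 to −0.22, and passed only without control siRNA replicate 1 (adjusted p = 0.00927). Herc2 passed with limma-voom alone (0.18, adjusted p = 0.0449). The cause was not tested. Of all genes, 163 were called, against 87 with the replicate block and 77 to 172 with each library left out, the lowest without NCOA4 siRNA replicate 2 (77), replicate 1 (86) and replicate 3 (98). The number at an adjusted p under 0.05 was 750, against 1485 with limma-voom, 499 without the filter, 404 without a trend, 161 with the replicate block, 495 and 380 without control siRNA replicates 2 and 3, and 156, 127 and 182 without NCOA4 siRNA replicates 1, 2 and 3. Libraries with the same replicate number did not deviate together (correlations of 0.03, −0.02 and 0.02 over 13829 genes). The values thus gave no sign of pairing, but whether the cultures were set up as pairs is not known. The log2 ratio of the mean levels in controls turned from −1.23 to 0.20 for Fth1 over Ftl1, and from −0.41 to 0.80 for Ncoa4 over Gm6768, per main transcript length. The difference in the Fth1 to Ftl1 log2 ratio ranged from −0.25 to −0.09 with each library left out. The difference in the Gm6768 share ranged from −1.60 to 0.08 percentage points. With 3 libraries a group, no exact permutation p can fall below 0.1.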

Other observations

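Gm6768 and Ftl1-ps1 are both nearly identical to an expressed gene, yet they held very different numbers of reads beside it. Gm6768 matches the coding sequence of Ncoa4 at 99.9% and held 1286 reads over the 6 libraries, beside 4899 on Ncoa4. Ftl1-ps1 matches Ftl1 over 910 bases at 99.6% and held 766 reads, beside 325019 on Ftl1, which is 0.236%. Whether the reads on either copy come from its own transcript was not tested.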
